A study of Mus musculus with 6 samples.

Results

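The genes described are the cyclins and cyclin-dependent kinases (CDKs) of S phase and mitosis with the small CKS proteins that bind those kinases. They were the 10 rows of the deposited count table with the symbols Ccna2, Ccnb1, Ccnb2, Ccne1, Ccne2, Ccnf, Cdk1, Cdk2, Cks1b and Cks2, out of 23420 gene symbols. All 10 passed the filter on low counts. They were read in polyadenylated RNA from pancreatic islets of C57BL/6J mice. The 3 libraries labelled OIO came from mice given a gastric infusion of Ensure, a liquid diet, at 13 to 18.5 kcal per day for 9 days. The 3 control libraries came from mice given saline by gastric infusion for 9 days, so both groups carried the infusion. Neither the age of the mice nor how many mice stood behind a library is stated in the labels, so the p-values below cover the spread among 6 libraries, which may be only technical. Whole islets hold several cell types, and in such bulk RNA fewer cells of a type and less RNA per cell cannot be told apart.

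Cyclins are regulatory proteins that rise and fall through the cell cycle, and most of them switch on a partner kinase. Cyclin E with CDK2 drives the step from G1 into DNA replication, cyclin A works with CDK2 in S phase and with CDK1 later, and cyclin B with CDK1 drives mitosis. CKS proteins help the kinases hold on to substrates that are already phosphorylated. Adult beta cells divide rarely, and most cells that do not divide hold little cyclin A, cyclin B or CDK1 transcript.

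The genes of cyclins A2, B1, B2 and F, of CDK1 and of both CKS proteins rose in OIO islets. Those of cyclin E and CDK2 did not pass the test. Of the 10 genes, 7 rose, none fell and 3 did not pass at an adjusted p under 0.05 in edgeR's quasi-likelihood test, against a background of 4.54% of all 14903 tested genes that rose. Those that rose were Ccnb1, Cdk1, Ccnb2, Cks2, Ccnf, Ccna2 and Cks1b, by between 1.90-fold and 4.07-fold. Ccne1, Ccne2 and Cdk2 had log2 fold changes between 0.36 and 0.40 and did not pass. All 10 fold changes were positive, with a median log2 fold change of 1.24 against −0.01 for all genes tested. In either direction 7.37% of all genes were called. The OIO libraries all lay above the control libraries for 9 of the 10 genes, against 14.1% of all tested genes, with 15.1% apart the other way and 29.3% in either direction. Ccne1 was the exception.

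The count of 7 depended on which libraries were in the fit. Without OIO replicate 1, 2 or 3 it was 5 each time, against 2.66%, 2.23% and 2.35% of all genes that rose, since Ccna2 and Cdk1 no longer passed. Leaving out control replicate 1, 2 or 3 gave 5, 7 and 6 genes, against 3.7%, 2.92% and 3.4% of all genes. Ccnb1, Ccnb2, Ccnf and Cks2 passed in all 6 of these fits. With all libraries, 7 genes rose under RLE scaling, upper quartile scaling, library size alone and limma voom, against 4.65%, 4.65%, 3.34% and 4.29% of all genes. The count was 8 in edgeR without the filter on low counts and 8 in DESeq2, against 3.63% and 6.16%, with Ccne2 the gene added.

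The promoters are shown for 2 pairs, each of a gene that was called and a counterpart that was not, Ccnb1 with Ccne1 and Cdk1 with Cdk2. NF-Y, which binds the letters CCAAT, is known to drive many mitotic genes. The cell cycle homology region (CHR), here TTTGAA or TTTAAA, is known to be bound by the MuvB complex, and TTTNNCGC is a simple form of the letters E2F factors bind. Each sequence gives the 150 bases before the transcription start in RefSeq on GRCm38.p6, 5′ to 3′ on the gene's strand, with matches to these motifs on either strand in capitals. All 4 genes lie on the minus strand, and the stretches are chr13:100786487-100786636 for Ccnb1, chr7:38107491-38107640 for Ccne1, chr10:69352913-69353062 for Cdk1 and chr10:128705052-128705201 for Cdk2.
Ccnb1: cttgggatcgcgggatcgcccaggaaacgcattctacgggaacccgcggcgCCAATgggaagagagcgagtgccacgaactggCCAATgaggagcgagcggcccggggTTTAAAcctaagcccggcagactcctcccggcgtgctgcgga
Ccne1: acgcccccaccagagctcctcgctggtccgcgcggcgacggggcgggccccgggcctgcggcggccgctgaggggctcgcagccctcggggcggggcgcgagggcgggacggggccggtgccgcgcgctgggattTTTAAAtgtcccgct
Cdk1: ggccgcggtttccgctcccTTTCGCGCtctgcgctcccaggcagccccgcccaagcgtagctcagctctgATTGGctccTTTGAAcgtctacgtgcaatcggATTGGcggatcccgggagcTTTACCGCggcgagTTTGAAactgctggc
Cdk2: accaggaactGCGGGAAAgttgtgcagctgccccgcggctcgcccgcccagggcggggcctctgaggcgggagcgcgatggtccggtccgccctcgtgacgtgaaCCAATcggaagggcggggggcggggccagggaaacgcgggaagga

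RefSeq promoters were matched for 8 of the 10 genes, and the motifs were counted in 300 bases, from 250 before to 50 after the start. TTTAAA reads the same on both strands and was counted once, and no printed base fell in 2 motifs. At least 2 CCAAT matches were found in all 6 promoters of genes that rose (Ccnb1, Ccnb2, Ccnf, Cdk1, Cks1b and Cks2), with 2 to 4 matches each. Cdk2 held 1 CCAAT and Ccne1 none. Among 32851 RefSeq promoters of the same length, 11.7% held at least 2 CCAAT. A CHR match was present in 5 of the 6 and in Ccne1, against 27.6% of all promoters, and Cks2 and Cdk2 held none. At least 2 CCAAT together with a CHR stood in 5 of the 6 and in neither of the others, against 3.13% of all promoters. In Ccnb1 the CCAAT matches began 99 and 67 bases before the start and the CHR 42 bases before it. In Cdk1 the CHR nearest the start began 15 bases before it. TTTNNCGC was matched in Cdk1 and Cdk2 only among the 8, against 5.17% of all promoters. These matches are letters and not sites shown to be bound. The motifs were chosen after the fold changes were seen and only 2 promoters of uncalled genes were matched, so the comparison is not a test.

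Expression is given as CPM, read counts scaled to a common library size that was adjusted by trimmed mean of M-values (TMM), with OIO and control replicates 1, 2 and 3 in that order. Ccnb1, the gene of cyclin B1, which with CDK1 triggers entry into mitosis, stood at 3.40, 4.77 and 5.43 CPM in OIO and at 1.51, 0.54 and 1.32 CPM in control islets. The lowest OIO library was 2.25 times the highest control library. The means of 4.54 ± 1.04 and 1.12 ± 0.51 CPM (SD, n = 3 each) gave a log2 fold change of 2.03 (SE 0.34, edgeR adjusted p = 0.010), the largest of the 10. Control replicate 2 rested on 21 reads, with an exact 95% Poisson interval of 13.0 to 32.1 reads that covers counting error only.

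Ccnb2, the gene of cyclin B2, stood at 6.27, 5.0 and 5.63 CPM in OIO and at 2.56, 1.34 and 2.27 CPM in control islets. The groups did not overlap, and the log2 fold change was 1.45 (SE 0.23, edgeR adjusted p = 0.0061). Both B cyclins were lowest in control replicate 2, while OIO replicate 1 was the lowest OIO library for Ccnb1 and the highest for Ccnb2.

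Cdk1, the gene of the mitotic kinase, stood at 10.3, 12.8 and 13.1 CPM in OIO and at 4.94, 2.29 and 5.06 CPM in control islets. The lowest OIO library held 2.05 times the highest control. Its log2 fold change was 1.57 (SE 0.28, edgeR adjusted p = 0.023). Leaving out any 1 OIO library, or control replicate 1, left it uncalled (edgeR adjusted p between 0.054 and 0.082), while its log2 fold change stayed between 1.28 and 1.76 with any library left out.

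Ccna2, the gene of cyclin A2, stood at 16.3, 15.4 and 15.5 CPM in OIO and at 8.72, 4.29 and 7.80 CPM in control islets. The OIO libraries lay close together, with a coefficient of variation of 3.06%, against 33.7% among controls. The log2 fold change was 1.18 (SE 0.23, edgeR adjusted p = 0.031) and was not called once any 1 OIO library, or control replicate 3, was left out (edgeR adjusted p between 0.066 and 0.099). Its annotated transcripts overlap those of Exosc9, which lies on the opposite strand, over 431 bases, and Exosc9 had a log2 fold change of −0.10 (edgeR adjusted p = 0.38).

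Ccnf, the gene of cyclin F, which serves a ubiquitin ligase and is not known to activate a CDK, stood at 3.30, 4.46 and 3.82 CPM in OIO and at 1.60, 1.62 and 1.49 CPM in control islets. The controls were nearly level, and control replicate 2 was here the highest of them. The log2 fold change was 1.31 (SE 0.19, edgeR adjusted p = 0.0047), with the lowest p of the 10.

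Both CKS genes rose. Cks2 stood at 2.59, 2.87 and 2.79 CPM in OIO and at 1.10, 0.72 and 1.20 CPM in control islets. Its log2 fold change was 1.45 (SE 0.25, edgeR adjusted p = 0.0081). Cks1b, whose protein also helps the ligase SCF-SKP2 to mark the CDK inhibitor p27 for degradation, stood at 15.6, 14.3 and 19.7 CPM in OIO and at 8.08, 7.27 and 10.7 CPM in control islets. The log2 fold change was 0.93 (SE 0.17, edgeR adjusted p = 0.016) and did not pass without control replicate 1 (edgeR adjusted p = 0.066). The difference between the CKS genes was not tested.

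**Figure D1:**
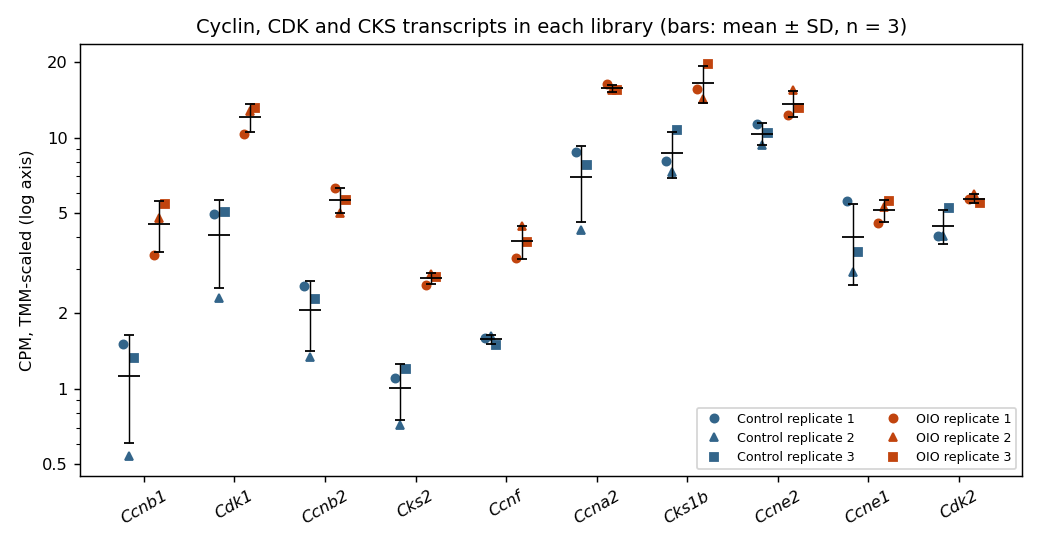
CPM of the 10 genes in each library on a log axis, ordered by log2 fold change, with controls in blue, OIO in red, a marker shape per replicate number and bars for the mean ± SD (n = 3). The OIO libraries lie above all controls for every gene other than Ccne1, with the widest gap for Ccnb1, and control replicate 2 is lowest for most genes.

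The genes of cyclin E1, cyclin E2 and CDK2 did not pass the test. Ccne1, the gene of cyclin E1, stood at 4.55, 5.28 and 5.58 CPM in OIO and at 5.61, 2.90 and 3.51 CPM in control islets. Control replicate 1 was above all OIO libraries. Its log2 fold change was 0.37 (SE 0.23, edgeR adjusted p = 0.38), with a 95% interval of the fold from 0.905 to 1.84. It was 0.68 without control replicate 1 (edgeR adjusted p = 0.066) and 0.18 without control replicate 2 (edgeR adjusted p = 0.69).

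Ccne2, the gene of cyclin E2, stood at 12.3, 15.4 and 13.2 CPM in OIO and at 11.3, 9.30 and 10.5 CPM in control islets. The groups did not overlap, with OIO replicate 1 at 1.09 times control replicate 1. The log2 fold change was 0.40 (SE 0.11, edgeR adjusted p = 0.058), with an interval of the fold from 1.11 to 1.57. It passed in DESeq2 (adjusted p = 0.037) and in edgeR without the filter on low counts (adjusted p = 0.049). Its annotated transcripts share 474 bases with Ints8 on the opposite strand, which had a log2 fold change of 0.02 (edgeR adjusted p = 0.89).

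Cdk2, the gene of the S phase kinase, stood at 5.70, 5.95 and 5.49 CPM in OIO and at 4.04, 4.06 and 5.23 CPM in control islets. Every OIO library was higher, by a margin of 1.05 times at its narrowest. The log2 fold change of 0.36 (SE 0.15, edgeR adjusted p = 0.17) left an interval of the fold from 1.03 to 1.61. Pmel, which overlaps Cdk2 on the opposite strand, had a log2 fold change of 0.07 (edgeR adjusted p = 0.94). The intervals of these 3 genes do not show that they were level between groups, and all 3 overlapped that of Cks1b, from 1.46 to 2.48. The intervals of Ccne2 and Cdk2 lay wholly on the side of a rise, and that of Ccne1 covered both directions. Unlike the calls, the intervals are not adjusted for the number of genes tested.

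**Figure D2:**
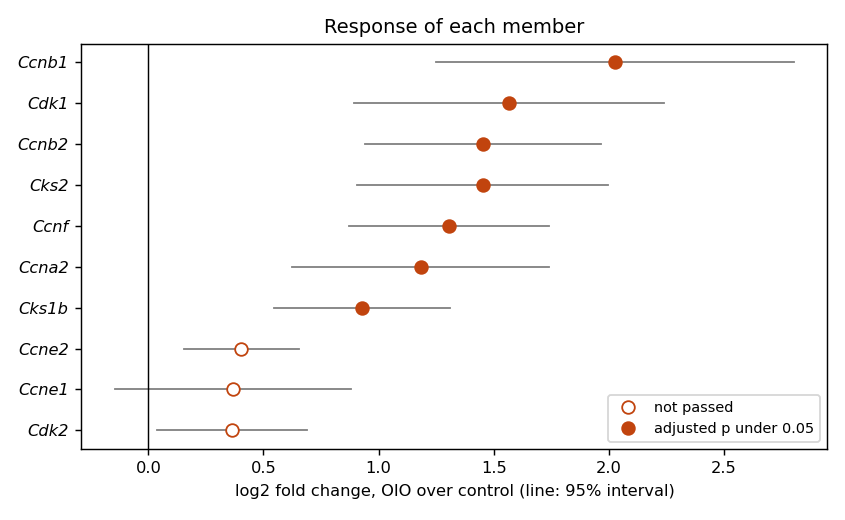
Log2 fold change of OIO over control for each gene, with lines for the 95% interval of the edgeR fit and filled points for an adjusted p under 0.05. Ccnb1 stands highest at 2.03, 7 genes are filled, and Ccne2, Ccne1 and Cdk2 lie between 0.36 and 0.40.

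Ratios taken within a library do not depend on how libraries are scaled. There were 1.81, 2.14 and 2.38 Cdk1 counts per Cdk2 count in OIO and 1.22, 0.565 and 0.967 in control islets. The log2 ratio was 1.26 higher in OIO, a 2.40-fold difference (exact permutation test, 2-sided, p = 0.10, the smallest that 3 against 3 libraries allow). For Ccnb1 per Ccne1 the ratios were 0.749, 0.904 and 0.974 in OIO and 0.271, 0.189 and 0.378 in control islets. That log2 ratio was 1.70 higher in OIO, a 3.24-fold difference (exact permutation test, 2-sided, p = 0.10, again the smallest possible). In both cases all OIO libraries lay above all controls, in a design that cannot reach 0.05. These were the 2 ratios computed.

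**Figure D3:**
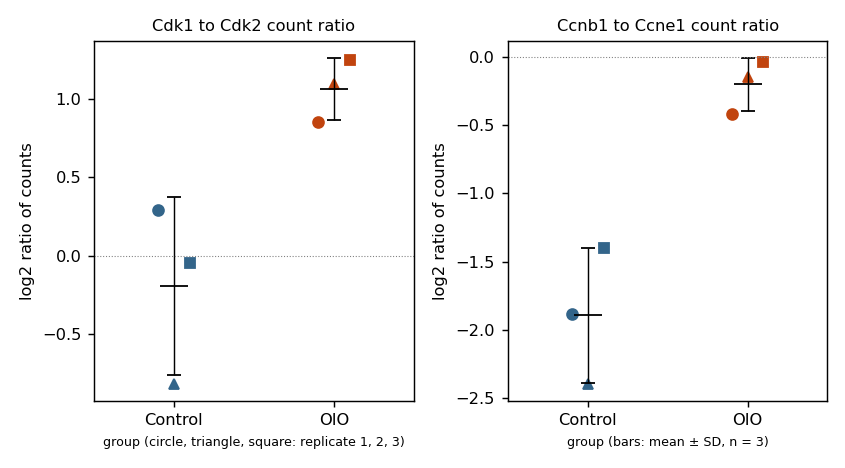
Log2 ratio of Cdk1 to Cdk2 counts (left) and of Ccnb1 to Ccne1 counts (right) in each library, with the mean ± SD of each group (n = 3). Both ratios are higher in every OIO library than in any control library, and control replicate 2 is lowest in both.

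Control replicate 2 was low for most of the 10 genes. Relative to the control mean on the log2 scale, control replicate 2 stood at −0.91 for Ccnb1, −0.75 for Cdk1, −0.63 for Ccna2 and −0.56 for Ccnb2. It was the lowest control for 8 of the 10 genes, the exceptions being Ccnf and Cdk2. How often it was lowest over all genes was not counted. Control replicate 2 also stood apart beyond these genes. The chi-square per degree of freedom between libraries, which grows with read depth, was 52.2 and 50.8 against control replicates 1 and 3. It was 27.1 between control replicates 1 and 3, and 13.1 to 14.9 among OIO libraries. Control replicates 1 and 3 were at 0.55 and 0.36 for Ccnb1 and at 0.36 and 0.39 for Cdk1. In OIO islets no library led throughout, and replicates 1, 2 and 3 were highest for 2, 4 and 4 genes. Summed over the 10 genes, expression was 80.4, 86.3 and 90.2 CPM in OIO and 49.5, 34.3 and 49.0 CPM in control islets.

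**Figure D4:**
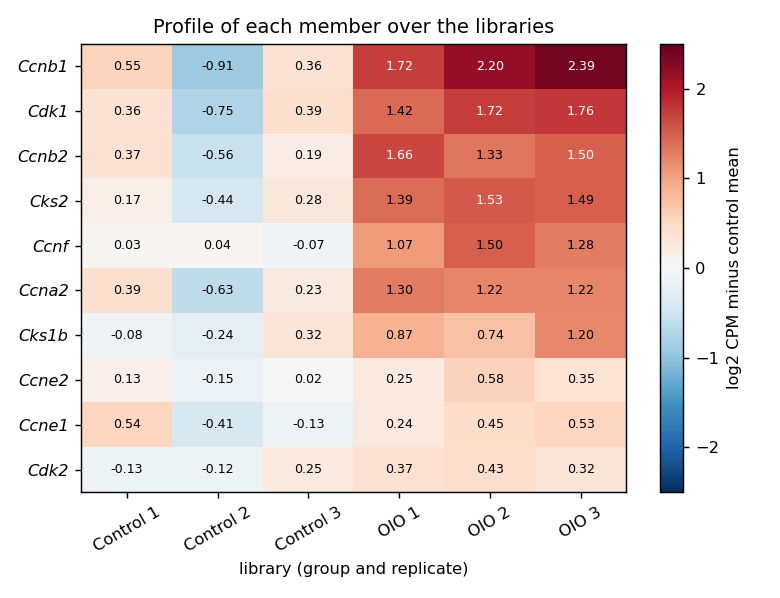
Log2 CPM minus the control mean for each gene (rows, by fold change) and library (columns), with values printed in the cells. The first 7 rows are at 0.74 or more in every OIO library and the last 3 rows between 0.24 and 0.58, and control replicate 2 has the lowest value among controls in 8 of 10 rows.

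Levels between genes were compared per kilobase of annotated coding transcript (mean length per gene, GENCODE M21). In control islets Cks1b led with 10.8 ± 2.23 CPM per kilobase (SD, n = 3), clear of Ccne2 at 3.49 ± 0.34, Ccne1 at 3.07 ± 1.09 and Ccna2 at 2.79 ± 0.94, and then Cdk1 at 1.94 ± 0.74 and Cdk2 at 1.91 ± 0.29. From Ccne2 to Cdk2 the ranges of neighbours in this order overlapped. Cks2 and Ccnb2, which overlapped, followed at 1.45 ± 0.37 and 1.34 ± 0.42, and Ccnb1 and Ccnf, which also overlapped, were lowest at 0.58 ± 0.27 and 0.38 ± 0.02. In OIO islets the order by level was Cks1b at 20.5 ± 3.48, Ccna2 at 6.33 ± 0.19, Cdk1 at 5.72 ± 0.71 and Ccne2 at 4.59 ± 0.54 CPM per kilobase, and of neighbours among these only Cdk1 and Ccne2 overlapped. Ccne2 overlapped Cks2 at 3.97 ± 0.21 in turn. Cks2, Ccne1 at 3.94 ± 0.41 and Ccnb2 at 3.68 ± 0.41 overlapped from one to the next, above Cdk2 at 2.46 ± 0.10 and Ccnb1 at 2.34 ± 0.54, which overlapped, and Ccnf at 0.93 ± 0.14. With the longest transcript in place of the mean, Cdk1 stood at 2.76 CPM per kilobase in OIO and 0.94 in control islets and ranked 6 and 8, so its place in this order depends on which transcripts the islets use. Other ranks moved too. Ccne1 then ranked 7 in OIO and 4 in control islets, in place of 6 and 3, and Ccnb2 ranked 5 in OIO in place of 7.

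The makeup of the cyclin transcripts was compared per kilobase, without a test. Only the mean transcript length was used, which for Ccne1 is 1304 bases against 2000 for its longest coding transcript. The E cyclins made up 36.6%, 41.5% and 39.0% of the 6 cyclin genes' summed level in OIO and 56.1%, 62.1% and 52.3% in control islets. The B cyclins made up 28.1%, 25.7% and 29.0% in OIO and 16.9%, 13.3% and 18.2% in control islets. Neither share overlapped between the groups. Ccna2 made up 29.1% ± 2.06 and 23.6% ± 3.26, and Ccnf 4.27% ± 0.515 and 3.42% ± 0.988 (OIO and control, SD, n = 3). The summed level of the 6 cyclins was 21.8 ± 0.85 CPM per kilobase in OIO and 11.7 ± 2.92 in control islets (SD, n = 3).

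In the authors' deposited table the 10 genes had the same directions as in the edgeR fit, as did 14558 of the 14903 genes in both. That authors' deposited table gave log2 fold changes of 2.17 for Ccnb1, 1.68 for Cdk1 and 1.25 for Ccna2, with adjusted p of 0.014, 0.014 and 0.021. In the authors' deposited table Ccne1, Ccne2 and Cdk2 stood at 0.45, 0.43 and 0.37, with adjusted p of 0.27, 0.059 and 0.15.

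On GRCm38 (GENCODE M21) Ccnb1 lies on chromosome 13 from 100778650 to 100786570, Cks2 on chromosome 13 from 51645232 to 51650660, Ccna2 on chromosome 3 from 36564865 to 36572150 and Cks1b on chromosome 3 from 89415472 to 89418383. Cdk1 lies on chromosome 10 from 69335146 to 69352938 and Cdk2 on chromosome 10 from 128697939 to 128705031. Ccnb2 is on chromosome 9 from 70407692 to 70421547, Ccne1 on chromosome 7 from 38097984 to 38107534, Ccne2 on chromosome 4 from 11191351 to 11204779 and Ccnf on chromosome 17 from 24222198 to 24251484. All 10 are protein-coding genes, counted as a whole gene each with no split by exon. Near-identical copies, at 90% identity or more over at least 200 bases, were found among annotated transcripts of other loci for Ccnb1 (5 pseudogenes), Cks1b (3 copies, including Cks1brt) and Cks2 (5 pseudogenes). None of these copies has a row in the count table, so reads from them could be counted under Ccnb1, Cks1b or Cks2, and those values are less certain than the others. No copy was found for Cdk1, Ccnb2, Ccnf, Ccne1 or Cdk2, and for Ccna2 and Ccne2 the only matches were the overlapping genes.

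Most of the genes that switch CDK1 and CDK2 on and off had positive log2 fold changes, 13 of 15 against 7081 of all 14903 tested genes. Among the 15, 6 rose and 1 fell, against 4.54% and 2.84% of all genes, and the median log2 fold change was 0.25. The other 8 did not pass, and some of their positive values were close to no change. Ccnh, the gene of cyclin H, rose by 0.37 (SE 0.06, edgeR adjusted p = 0.0079), while Cdk7, the gene of its partner in the kinase that activates CDKs, fell by 0.32 on the log2 scale (SE 0.06, edgeR adjusted p = 0.010). Plk1, a mitotic kinase that promotes CDK1 activation, rose by 1.34 (SE 0.24, edgeR adjusted p = 0.010). The others that rose were named after their values were seen. They were Cdc25c at 2.26 and Cdkn3 at 1.48 (edgeR adjusted p = 0.011 and 0.027), and Aurka at 1.04 and Mastl at 0.78 (edgeR adjusted p = 0.017 and 0.043). Cdc25c had 15, 5 and 15 reads in control replicates 1, 2 and 3. Cdk7 did not pass without OIO replicate 2 (edgeR adjusted p = 0.051). Leaving out OIO replicate 2 or 3, 3 genes rose each time, against 2.23% and 2.35% of all genes, and 0 and 1 fell.

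Of 27 genes of the ligases that degrade cyclins, 3 rose and 1 fell, against 4.54% and 2.84% of all genes. The median was 0.00. Cdc20 and Ube2c, the activator and the ubiquitin-conjugating enzyme with which the anaphase-promoting complex (APC/C) destroys cyclin B, rose by 1.60 (SE 0.14, edgeR adjusted p = 3.0e-04) and 1.73 (SE 0.22, edgeR adjusted p = 0.0019). Anapc16, an APC/C subunit, rose by 0.34 (SE 0.06, edgeR adjusted p = 0.011). The gene that fell was Anapc4, another subunit, at −0.22 (edgeR adjusted p = 0.047), named after its value was seen. It was not called in any fit with a library left out (edgeR adjusted p between 0.056 and 0.19), under RLE scaling or in limma voom. The share that rose in this list, 3 of 27, can be read against the background of 4.54% for all genes.

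Of 24 factors that control cyclin gene transcription, 5 rose and none fell, against 4.54% and 2.84% of all genes. The median was 0.16. They included E2f7, an E2F repressor, at 1.14 (SE 0.19, edgeR adjusted p = 0.0069), Rbl1, the gene of the pocket protein p107, at 0.50 (SE 0.09, edgeR adjusted p = 0.010), and E2f1, an E2F activator, at 0.89 (SE 0.14, edgeR adjusted p = 0.011). E2f8 at 1.30 and Foxm1 at 1.04 (edgeR adjusted p = 0.016 and 0.039), named after their values were seen, made up the 5. With each library left out in turn E2f8 passed in 4 of 6 fits and Foxm1 in 2. Of the NF-Y genes Nfya, Nfyb and Nfyc, none passed (lowest edgeR adjusted p 0.056, for Nfyb at −0.24, which passed on library size alone at −0.31, adjusted p = 0.018). Of the 24, 3 were called when OIO replicate 2 was left out and 3 when OIO replicate 3 was, against 2.23% and 2.35% of all genes that rose.

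Of 12 D-type cyclins, their kinases and CDK inhibitors, 1 rose and 1 fell, against 4.54% and 2.84% of all genes. Cdkn2c, the gene of the inhibitor p18, stood at 0.51 (SE 0.11, edgeR adjusted p = 0.021) and Ccnd2 at −0.33 (SE 0.09, edgeR adjusted p = 0.048), and Ccnd1 at −0.20 (SE 0.07) did not pass (edgeR adjusted p = 0.098). With each library left out in turn, Cdkn2c passed in 3 of 6 fits and Ccnd2 in 2. Of 26 tested cyclins and CDKs of other roles, 2 rose and 2 fell, against the same background, with a median of −0.06. Ccnl1 and Ccnt2, cyclins of transcription and splicing kinases, stood at −0.32 and −0.31 (edgeR adjusted p = 0.015 and 0.022), and Ccng1, a p53 target, at 0.24 (edgeR adjusted p = 0.045). Cdk5, a CDK with roles outside the cell cycle, named after its value was seen, was the other that rose, at 0.22 (edgeR adjusted p = 0.049). It passed in 2 of 13 alternatives, RLE and upper quartile scaling, and in none with a library left out. On library size alone the list held 0 genes that rose and 4 that fell, against 3.34% of all genes that rose. The median log2 fold change of all genes was then −0.08, against −0.01 as reported. Ccnl1 passed in 4, Ccnt2 in 3 and Ccng1 in none of the leave-out fits, in which these 2 lists held between 0 and 2 calls each. Of all genes 2.23% to 3.7% rose in those fits.

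**Figure D5:**
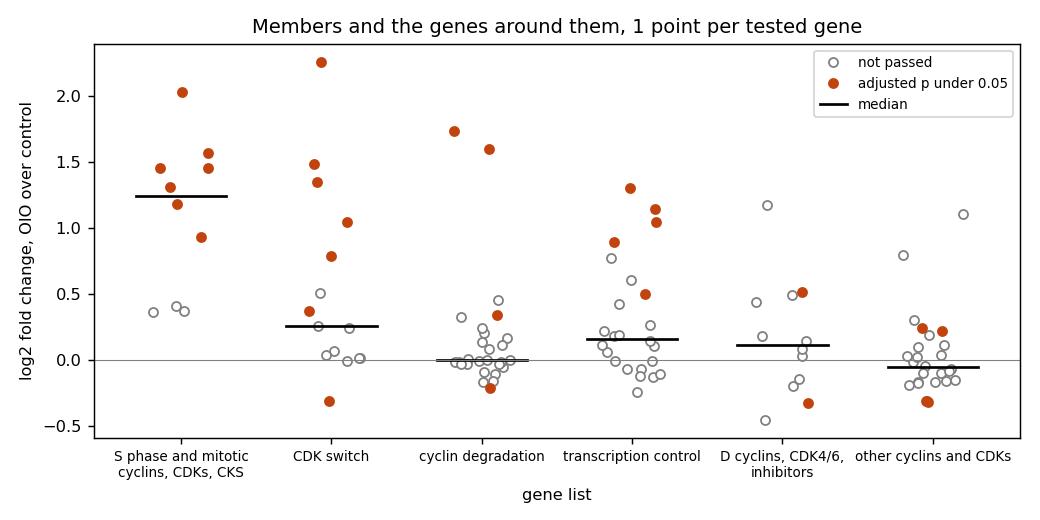
Log2 fold change of OIO over control for each tested gene of the S phase and mitotic group and of the 5 lists around it, with red points for an adjusted p under 0.05 and a line at each median. The medians are 1.24 for the S phase and mitotic group and between −0.06 and 0.25 for the other lists.

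The genes whose log2 CPM over the 6 libraries, centred on the control mean, came nearest to that of Cdk1 were Ncapg, a condensin subunit, Casc5, a kinetochore gene now named Knl1, Top2a, Hmmr and Ube2c, with root mean square differences of 0.07 to 0.14. Those nearest to Cdk2 were Il2rg, Defb1, Inpp4b, Mdh1 and Dnajb11, at 0.06 each. Within the group of 10, the nearest pair was Ccne2 with Cdk2, at 0.16, and the farthest was Ccnb1 with Cdk2, at 1.31. Mki67, a general marker of dividing cells, stood at 57.7, 64.6 and 61.5 CPM in OIO and at 29.6, 13.5 and 23.0 CPM in control islets, with no overlap. Its log2 fold change of 1.48 did not pass (edgeR adjusted p = 0.059), but did in 5 of 13 alternatives, DESeq2 and limma voom among them, over which the adjusted p ran from 2.0e-04 to 0.34. In the authors' deposited table Mki67 had an adjusted p of 0.010.

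Total counts ranged from 20968058 in OIO replicate 1 to 48178375 in OIO replicate 2, of which 1336 to 4085 per library fell on the 10 genes. The 8 endocrine markers, the islet hormones among them, summed to 314242 to 347393 CPM in OIO and 286512 to 306750 CPM in control islets. None of the 8 passed, and their directions were mixed. Log2 fold changes were 0.28 for Ins1, 0.19 for Ins2, 0.20 for Iapp, 0.23 for Chga and 0.08 for Pcsk2. They were −0.05 for Gcg, −0.02 for Sst and −0.60 for Ppy, which was lower in every OIO library. Of the T and B cell markers 9 of 10 were in the table, none passed or was at 0 throughout, and their sum was 8.24, 35.4 and 21.2 CPM in OIO and 7.76, 10.8 and 25.7 CPM in control islets. The median log2 fold change of the 7 tested was 0.93, and Lck was higher in every OIO library than in any control (log2 fold change 0.56, edgeR adjusted p = 0.14). The part of T and B cells in the result was not tested. Leaving out the highest of each group, OIO replicate 2 and control replicate 3, 3 of the 10 genes rose (Ccnb2, Cks1b and Cks2) against 1.66% of all genes, and the log2 fold changes were 2.14 for Ccnb1, 1.71 for Cdk1 and 1.29 for Ccna2. Duct markers summed to 366 to 489 CPM in OIO and 312 to 322 CPM in control islets, with 1 of 7 passing (Krt7). The part of the endocrine and duct sums in the result was not tested. Sums of 9 macrophage, 8 endothelial, 9 stromal, 10 acinar and 6 Schwann cell markers overlapped between the groups. Of these only Tek, an endothelial gene, passed (edgeR adjusted p = 0.0496, in none of the fits with a library left out), and Amy2a5 was at 0 in every library. Of 6 erythroid markers 4 were in the table, Hba-a1 and Hba-a2 were at 0 in every library, and the sum was at most 4.41 CPM.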

How the data were processed

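Polyadenylated islet RNA was measured in 3 OIO and 3 control libraries, grouped by the labels, which give no batch or pairing. Replicates were numbered in accession order, so a number only names a library. RNA came from a Trizol extraction and went into Illumina TruSeq libraries, per the labels' protocols, which do not mention strand. Without strand, reads of genes that overlap on opposite strands cannot be told apart. The submitters' processing notes name bcl2fastq, kallisto, limma, GRCm38 and mm10, without versions or roles.

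The authors deposited whole-number counts for 23420 gene symbols, with no normalization. The sources used here do not say how kallisto's estimates became whole counts. The authors' deposited table of their comparison holds log2 fold changes, a statistic and log odds as scores, p-values and adjusted p-values.

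The main test was edgeR 4.0.16 (R 4.3.3; filterByExpr, TMM, robust quasi-likelihood fit on group, 4 residual degrees of freedom), with Benjamini-Hochberg adjustment over 14903 genes and a threshold of 0.05. Each SE is the size of the log2 fold change over √F, and 95% intervals use it with the test's degrees of freedom. Single ratios used a prior of 0.5 counts and an exact permutation test. Alternatives were other scalings, no filter, DESeq2 1.42.0, limma voom 3.58.1 and leaving out each library. The tests were tried on simulated data. Copies were searched with BLAST 2.17.0.

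The members and lists were chosen with earlier results of these data known. Genes beyond the 10 were named by rule: up to 3 of lowest p in each list, Mki67, and the 5 nearest in profile to Cdk1 and to Cdk2. The promoter motifs were chosen after the fold changes were seen.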

Additional observations from a re-analysis of the deposited data

How the results depend on the processing

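Over 13 alternatives, 1 of them chosen after seeing the data, 47 genes were followed. They were the 10, those named by profile, those named from the lists other than Cdc25c, Cdkn3, Aurka and Mastl, and Mki67, Nfya, Nfyb, Nfyc, Krt7, Tek and the overlapping genes Exosc9, Ints8 and Pmel. Of these 2 changed direction, neither called in any fit: the log2 fold change of Ints8 was −0.048 on library size alone and ran from −0.016 (without control replicate 1) to 0.042 when 1 library was left out, and that of Pmel was −2.8e-04 on library size alone and ran from −0.089 (without OIO replicate 3) to 0.31. The number of the 10 cyclin, CDK and CKS genes called, 7 as reported, was 7 or 8 under the other scalings, without the filter, in DESeq2 and in limma voom, and 5 to 7 when 1 library was left out. Leaving out 1 library gave 3 to 7 calls for the CDK switch genes, 3 for the degradation genes and 3 to 5 for the transcription factors. It gave 0 to 2 for the D-type cyclins and inhibitors and 0 to 2 for the other cyclins and CDKs. Of all genes 4.54% rose as reported and 3.34% to 6.16% under the other scalings, without the filter and in the other tools. The share was 2.23% to 3.7% with 1 library left out. The log2 differences then ranged from 0.95 to 1.5 for the Cdk1 to Cdk2 ratio and from 1.44 to 1.94 for the Ccnb1 to Ccne1 ratio. Without OIO replicate 2 and control replicate 3 together, 2 libraries a group remained. The calls were then 3 for the 10 genes, 1 for the switch genes, 2 for the degradation genes and 1 for the transcription factors. Each of the other lists held 0 calls, and 1.66% of all genes rose in that fit. With RLE scaling, and in limma voom, the D-type cyclins and inhibitors held 1 call, and in limma voom the other cyclins and CDKs held 2. The fits without a library rest on fewer samples, and for the tool and scaling the cause was not tested. No paired analysis was possible because the labels give no replicate numbers. Among the 10 genes the lowest single counts were 21 for Ccnb1 and 28 for Cks2, both in control replicate 2.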
